A study of Homo sapiens with 2 samples.

Results

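EGF family ligands, the ERBB receptors that bind them and the receptor inhibitor ERRFI1 were examined in TFK1 cells, an established human cholangiocarcinoma (CCA) cell line, after knockdown of MBD2. The set was defined by gene symbol and holds 10 genes, namely the ligands AREG, EREG, HBEGF, TGFA, BTC and EPGN, the receptors EGFR, ERBB2 and ERBB3, and ERRFI1. These are 10 of the 56638 genes in the deposited tables, and all 10 were found. The tables hold 1 library from TFK1 cells with knockdown of MBD2 (shMBD2) and 1 library from TFK1 cells with a negative control (shNC). Per the study's methods the short hairpin RNAs (shRNAs) were delivered by lentivirus and infected cells were selected with puromycin or G-418. The labels name no other treatment for either culture. Both libraries therefore come from infected cells of the same line, and the labels do not say which MBD2 shRNA was sequenced. MBD2 is a protein that binds methylated CpG sites, and the comparison of these libraries was made to find the genes it regulates in CCA cells. Because each condition has 1 library, no difference reported here has a replicate check and no p-value is given.

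EGF family ligands are made as membrane-anchored precursors, and proteases of the ADAM family cut them from the cell surface. The released ligand binds EGFR or another ERBB receptor, the receptors pair, and the signal runs through RAS and ERK and through PI3K and AKT. AREG (amphiregulin), TGFA, EPGN (epigen) and EGF bind EGFR, whereas EREG (epiregulin), HBEGF and BTC (betacellulin) also reach ERBB4. ERBB2 has no known ligand of its own and acts as a partner, and ERBB3 has little kinase activity and signals mainly through its partners. ERRFI1 (MIG6) binds the EGFR kinase domain and inhibits it, and its transcription follows EGFR signaling as a feedback. In bile duct epithelium and CCA, this pathway is known for its part in growth and repair.

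The depth and the identity of the libraries were checked first. The counts summed to 14728814 in shMBD2 and 14467406 in shNC. MBD2 had 365 counts in shMBD2 and 1013 in shNC, which is 35.8% of the shNC level after scaling. Of 7 biliary epithelial markers, all 7 had at least 10 counts, and their summed level was 4814 TPM (transcripts scaled to a library of 1000000, a level per gene length) in shMBD2 and 6014 TPM in shNC. Most of this sum was KRT8, at 3006 TPM in shMBD2 and 3890 TPM in shNC. KRT7 stood at 1160 and 1327 TPM and KRT18 at 526 and 686 TPM, whereas KRT19 stood at only 15.0 and 9.04 TPM. EPCAM, at 11.3 and 16.9 TPM, and SOX9, at 11.7 and 19.8 TPM, were also low. Of the 7 biliary markers, 5 had lower and 2 had higher values in shMBD2. The markers of other cell types were low, with 8 leukocyte markers summing to 19.8 and 13.8 TPM, most of it CD14, 6 fibroblast markers to 8.42 and 3.98 TPM and 4 hepatocyte markers to 2.31 and 0.559 TPM. Among them PTPRC, CD3E, COL1A2 and TTR had 0 or 1 counts in each library, and 0 of 4 endothelial markers had 10 counts. ALB had 3 counts in shMBD2 and 0 in shNC, COL3A1 had 1 and 6, and LUM had 5 and 6. Of these 22 markers of other cell types 6 had at least 10 counts, and CORO1A (56 counts in shMBD2 and 19 in shNC), LAPTM5 (29 and 3), COL1A1 (308 and 124) and SERPINA1 (39 and 11) were higher in shMBD2. Their part in the differences between the libraries was not tested.

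EREG lies on chromosome 4 beside AREG, and EREG had a higher value in shMBD2 while AREG did not. Their upstream sequences are shown here because MBD2 binds methylated CpG sites, although methylation was not measured in these data. They come from RefSeq (GRCh38.p14, plus strand), cover the 250 bases before the annotated start of each gene and read 5′ to 3′, with every CpG in capitals. The EREG stretch is chr4:74364895-74365144 and the AREG stretch is chr4:74444886-74445135.
EREG: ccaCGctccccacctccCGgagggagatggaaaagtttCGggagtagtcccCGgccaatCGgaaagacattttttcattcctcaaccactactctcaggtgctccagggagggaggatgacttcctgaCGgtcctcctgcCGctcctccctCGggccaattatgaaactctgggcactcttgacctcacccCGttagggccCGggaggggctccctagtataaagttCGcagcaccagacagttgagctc
AREG: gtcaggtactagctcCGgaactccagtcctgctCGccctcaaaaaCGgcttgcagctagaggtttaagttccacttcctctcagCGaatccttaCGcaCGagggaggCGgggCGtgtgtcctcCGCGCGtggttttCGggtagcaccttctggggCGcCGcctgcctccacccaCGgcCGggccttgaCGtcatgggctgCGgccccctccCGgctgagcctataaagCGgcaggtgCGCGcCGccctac
The EREG stretch holds 11 CpG sites and the AREG stretch 23. The stretch of EREG is thus the sparser of the pair.

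Among the ligands, EREG showed the largest difference, with a level in shMBD2 2.17-fold that in shNC. TGFA, HBEGF and BTC also had higher values in shMBD2, by at most 1.62-fold, AREG had a lower value and EPGN was barely detected. Among the receptors EGFR was nearly level, and the receptors ERBB2 and ERBB3 and the inhibitor ERRFI1 stood at 74.2% to 83.4% of their shNC levels. These folds come from counts scaled by the TMM method, and log2FC is shMBD2 over shNC. In RNA from a whole culture, fewer cells that express a gene and less RNA per cell cannot be told apart.

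**Figure D1:**
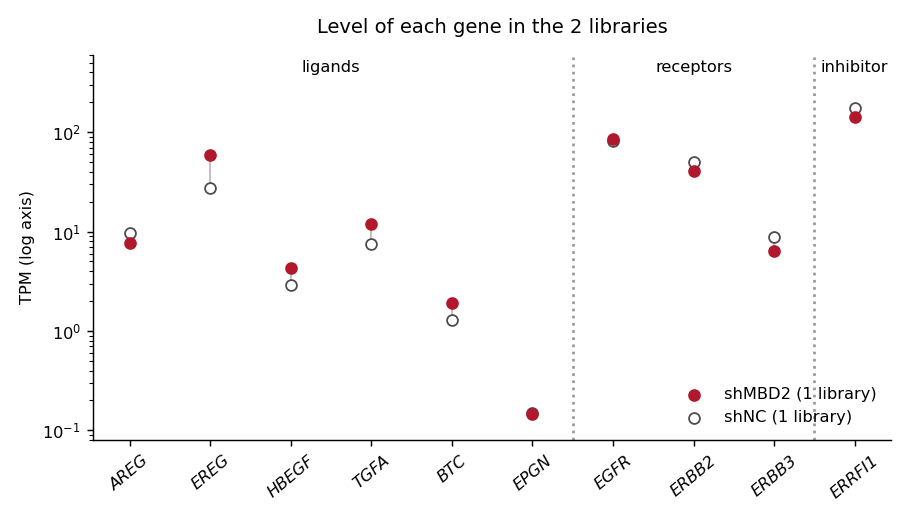
Level of the 10 genes in TPM (log axis), with a filled point for the shMBD2 library and an open point for the shNC library. EREG lies at 27.4 TPM in shNC and 58.3 TPM in shMBD2, and the EPGN points overlap near 0.15 TPM.

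EREG, a ligand of EGFR and ERBB4 (ENSG00000124882, chromosome 4, 74365143 to 74388751 on the plus strand in GRCh38), had 1541 counts in shMBD2 and 705 in shNC, or 58.3 and 27.4 TPM. The shMBD2 library was the higher of the libraries. Its log2FC was 1.12, with a 95% counting interval from 0.99 to 1.25. Each interval was computed exactly (Clopper-Pearson) from how the reads of the gene divide over the libraries, and covers counting error only. EREG was the only member with a log2FC above 1, or 1 of the 9 members with at least 10 counts (called tested here, with no significance test), against 5.48% of the 17545 genes that reached the same minimum. No member had a log2FC below -1, against 5.07% of these genes. The lower end of the EREG interval lay just under 1, so 0 of the 9 members had a whole interval above 1, against 1.37% of all genes, and 0 had a whole interval below -1, against 0.581%. Of the 5864 genes with 1000 or more counts over both libraries, 1.06% were above 1, and EREG ranked 53 from the highest log2FC among them. Among all 17545 genes it ranked 791.

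TGFA (transforming growth factor alpha, chromosome 2, 70447280 to 70554193 on the minus strand) had 294 counts in shMBD2 and 180 in shNC, or 11.9 and 7.49 TPM. Its log2FC was 0.70, with an interval from 0.43 to 0.97 that lies wholly above 0. Whole intervals above 0 were found for 3 of the 9 members (EREG, TGFA and EGFR), against 19.7% of all genes. HBEGF (heparin-binding EGF-like growth factor, chromosome 5, 140332843 to 140346631 on the minus strand) had 59 counts in shMBD2 and 39 in shNC, or 4.32 and 2.93 TPM. BTC (chromosome 4, 74744759 to 74794686 on the minus strand) had 31 and 20 counts, or 1.93 and 1.27 TPM. For both, the shMBD2 value was the higher but the interval included 0. It ran from -0.019 to 1.21 around a log2FC of 0.58 for HBEGF and from -0.23 to 1.51 around 0.61 for BTC, so a difference was not detectable at this depth. EPGN (chromosome 4, 74308473 to 74315307) had 1 count in each library, below the 3 counts taken as the floor, and no fold is given.

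AREG (ENSG00000109321, chromosome 4, 74445134 to 74455009 on the plus strand) had 54 counts in shMBD2 and 67 in shNC, or 7.62 and 9.70 TPM. Its log2FC was -0.32, with an interval from -0.86 to 0.22, so no difference was detectable in either direction. The AREG values are uncertain for another reason. The deposited tables list a second copy, AREGB, whose start lies 170 kb from that of AREG, with 3 counts in shMBD2 and 8 in shNC. RefSeq gives AREGB as another name of AREG, and GENCODE 29 (GRCh38) has no gene of that name or identifier. Reads that match both copies can be split or dropped in counting, which lowers the level of both, and how such reads were handled is not given in the sources used here. With the copies summed, AREG had 57 and 75 counts and a log2FC of -0.40, with an interval from -0.93 to 0.11. The interval of EREG lay above that of AREG, and their log2FC differed by 1.44.

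The makeup of the ligand RNA was compared per length, in TPM. The 6 ligands summed to 84.3 TPM in shMBD2 and 48.9 TPM in shNC, a log2 ratio of 0.78. EREG alone was 69.2% of that sum in shMBD2 and 56.0% in shNC. Without EREG, the other 5 ligands summed to 25.9 and 21.5 TPM, a log2 ratio of 0.27. In TPM, AREG was the next most abundant ligand in shNC, at 19.8% of the sum, and TGFA was the next in shMBD2, at 14.2%, where AREG stood at 9.04%. This order between AREG and TGFA depends on the uncertain AREG level. The order among the remaining ligands was the same in both libraries, with HBEGF above BTC and BTC above EPGN. The level of EREG was 0.690 times that of EGFR in shMBD2 and 0.337 times in shNC.

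**Figure D2:**
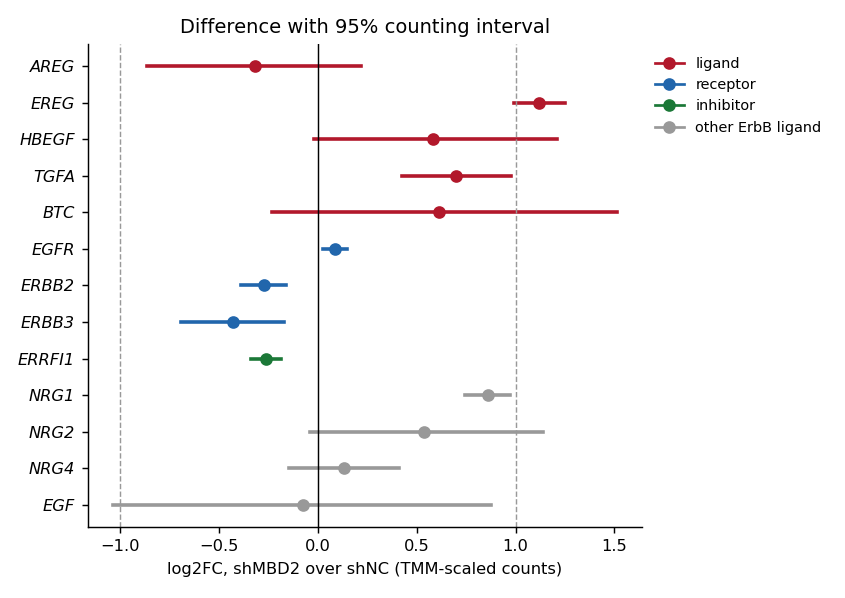
Log2FC (shMBD2 over shNC, TMM-scaled counts) of the 9 members with at least 10 counts and of 4 other ErbB ligands, with 95% counting intervals as bars and dashed lines at -1 and 1. EREG at 1.12 is the only point past 1, and the intervals of ERBB2, ERBB3 and ERRFI1 lie below 0.

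EGFR (ENSG00000146648, chromosome 7, 55019021 to 55211628 on the plus strand in GRCh38) was the most abundant receptor, with 4748 counts in shMBD2 and 4444 in shNC, or 84.6 and 81.2 TPM. Its log2FC was 0.087, with an interval from 0.027 to 0.15, or 106.2% of the shNC level, a difference that exceeds counting error alone. ERBB2 (chromosome 17, 39687914 to 39730426) had 1157 counts in shMBD2 and 1392 in shNC, or 41.0 and 50.7 TPM, and its log2FC was -0.28 with an interval from -0.39 to -0.16. ERBB3 (chromosome 12, 56076799 to 56103505) had 217 and 291 counts, or 6.41 and 8.82 TPM, and its log2FC was -0.43 with an interval from -0.69 to -0.17. EGFR was thus nearly level and its partners stood below shNC. The 3 receptors summed to 132.0 TPM in shMBD2 and 140.7 TPM in shNC. The order EGFR, ERBB2, ERBB3 held in both libraries, with EGFR at 2.06 times the level of ERBB2 in shMBD2 and 1.60 times in shNC. ERBB4, the remaining receptor of the family, had 0 counts in shMBD2 and 3 in shNC. A count of 0 allows up to 3 counts, or 0.205 CPM (counts scaled to a library of 1000000).

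ERRFI1 (chromosome 1, 8004404 to 8026308 on the minus strand) was the most abundant gene of the set per length. It had 2520 counts in shMBD2 and 3004 in shNC, or 142 and 174 TPM. Its log2FC was -0.26, with an interval from -0.34 to -0.19. ERRFI1, ERBB2 and ERBB3 were the 3 of 9 members with a whole interval below 0, against 18.4% of all genes. The level of ERRFI1 was 1.68 times that of EGFR in shMBD2 and 2.14 times in shNC. Among genes with at least 1000 counts, whole intervals on either side of 0 were common, 30.4% above and 26.8% below, so an interval that excludes 0 is a weak criterion for deeply counted genes such as EGFR and ERRFI1.

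**Figure D3:**
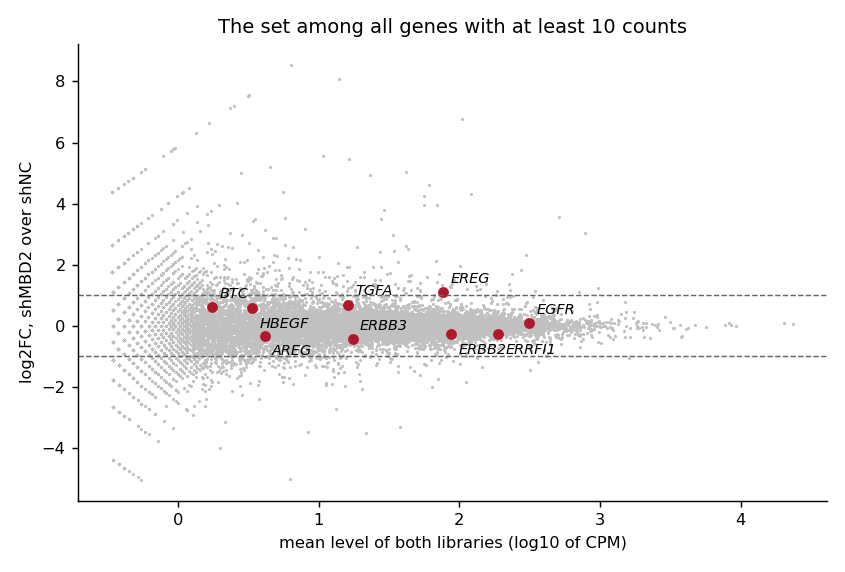
Log2FC against the mean level of both libraries (log10 of CPM) for the 17545 genes with at least 10 counts in grey and the 9 tested members in red, with dashed lines at -1 and 1. EREG lies above the upper line at 1.12, and the other members lie inside the lines.

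Over the 9 tested members the median log2FC was 0.087, with 5 above and 4 below 0, beside a median of -0.0082 over all genes tested. The 5 tested ligands had a median of 0.61 and the 3 receptors a median of -0.28. The ligand median is the value of BTC, whose interval included 0. Among the ligands only EREG and TGFA had a whole interval above 0. The values above 0 were those of 4 ligands and EGFR, and those below 0 were AREG, ERBB2, ERBB3 and ERRFI1.

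The remaining ErbB ligands were examined next. NRG1 (neuregulin 1), a ligand of ERBB3 and ERBB4, had 1797 counts in shMBD2 and 985 in shNC, or 100.5 and 56.5 TPM, so its level per length exceeded that of EREG in both libraries. Its log2FC was 0.86, with an interval from 0.75 to 0.97. NRG2 had 63 and 43 counts, NRG4 had 226 and 205, and EGF had 20 and 21. Their intervals included 0, and their log2FC values were 0.54, 0.13 and -0.077. NRG3 had 0 counts in both libraries. Of these 4 tested ligands, 0 were past 1 or -1, against 5.48% and 5.07% of all genes tested. The higher NRG1 value in shMBD2 thus stood beside a lower value of its receptor ERBB3.

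In the deposited positions, EPGN, EREG, AREG and BTC lie within 546 kb of chromosome 4. They lie next to the CXCL chemokine genes, which encode attractants of neutrophils. Within 1000000 bases on either side of the ligand genes the tables place 52 genes, of which 20 had at least 10 counts and 17 of those are not members. On the side that begins beyond MTHFD2L, 7 genes were above 1, in order from the far end IL8, CXCL6, CXCL1, PPBP, CXCL5, CXCL3 and CXCL2. IL8 (CXCL8) had 3052 counts in shMBD2 and 27 in shNC, a log2FC of 6.79. CXCL5 had 20492 and 2505 counts, a log2FC of 3.02, and CXCL2 had 791 and 56 counts, a log2FC of 3.80. CXCL1 (3364 and 166 counts) and CXCL3 (745 and 65 counts) had a log2FC of 4.33 and 3.50. The sequences of CXCL1, CXCL2 and CXCL3 are much alike, which leaves the division of reads among them uncertain. CXCL6 had 11 counts in shMBD2 and 0 in shNC, at least 3.64-fold higher against a floor of 3 counts. PPBP had 11 and 1 counts, a log2FC of 2.93 that rests on 1 count in shNC, with an interval from 0.67 to 8.88.

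Between the chemokine genes and the ligand genes the values differed from gene to gene. MTHFD2L, a mitochondrial folate enzyme gene that lies between CXCL2 and EPGN, had 167 counts in each library and a log2FC of -0.0088. EREG, whose start lies 251 kb from that of MTHFD2L, was above 1 again, and AREG, 80.0 kb further, was not. AC142293.3, which lies between AREGB and BTC, had 7 and 5 counts and an interval that included 0. AREGB was the only gene of the window below -1, with a log2FC of -1.29 from 3 and 8 counts and an interval from -3.97 to 0.63. The intervals of IL8, CXCL1, CXCL2, CXCL3 and CXCL5 lay wholly above that of EREG.

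**Figure D4:**
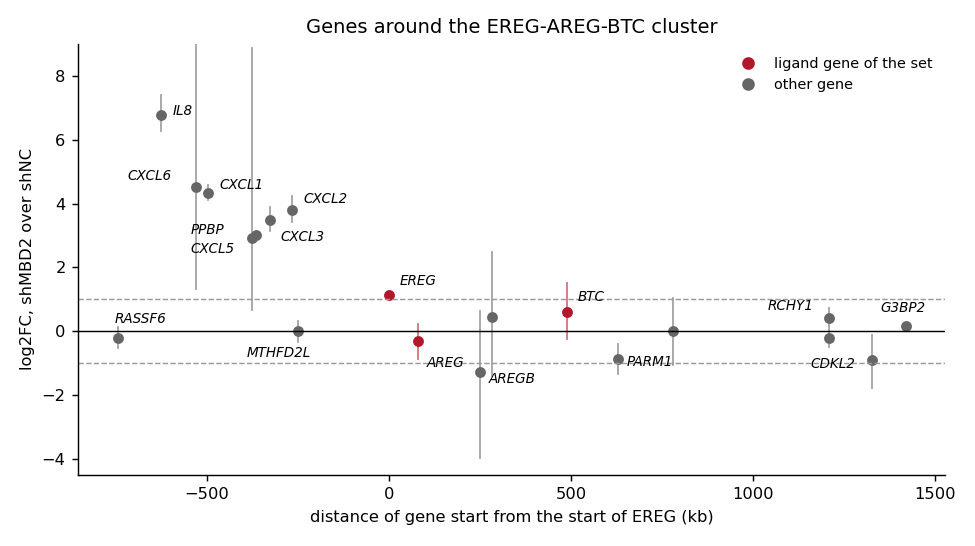
Log2FC (shMBD2 over shNC) of the 20 genes with at least 10 counts around the ligand genes, against the distance of each gene's start from that of EREG in kb, with 95% counting intervals as vertical bars. The upper end of the CXCL6 interval is unbounded and is cut at the top of the axis. CXCL6, with 0 counts in shNC, is drawn at a fitted value that depends on the prior count. PPBP, at 2.93, rests on 1 count in shNC. The other 5 chemokine genes at the left lie between 3.02 and 6.79, MTHFD2L lies at -0.0088 and EREG at 1.12.

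The promoters of the set were compared over windows of 300 bases, from 250 before to 50 after the RefSeq start. RefSeq windows matched 9 of the 10 members, with 11 windows in all, and ERBB3 had none. The number of CpG sites was 12 for EREG, 12 for BTC and 4 for EPGN, against 27 for AREG and 38 for HBEGF and a median of 14 over 35116 windows. TGFA had 30 and 22 in its windows, ERBB2 had 24, ERRFI1 had 47, and EGFR had 33 at its upstream start and 1 at its internal start. The ligands with higher values in shMBD2 thus ranged from windows with 12 CpG sites, just under the median, to a window with 38. Among these ligands, the log2FC intervals of BTC and HBEGF included 0. The CRE letters TGACGTCA, a palindrome bound by CREB family factors, were found in AREG alone among the member windows, against 1.85% of all windows. They begin 65 bases before its start. The AP-1 letters TGANTCA, also read the same on both strands, were found in the window of ERBB2 and in the internal window of EGFR, against 7.71% of all windows. The NF-kB letters, taken as GGG and CC with 5 bases between them on either strand, were found in 7 of the 11 member windows and in 58.7% of all windows. EREG held none of the 3 patterns, which says only that these letters are absent from this window.

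The genes that release, relay and limit the ErbB signal were then compared by role, in 6 lists. Over all genes tested, 5.48% were above 1 and 5.07% below -1, so a count of 0 in a short list says little. Of 9 genes for ligand shedding and trafficking, 0 were past 1 or -1 and the median log2FC was 0.21. RHBDF2, which encodes iRhom2, a partner that brings ADAM17 to the cell surface, was the highest, with 1179 counts in shMBD2 and 714 in shNC and a log2FC of 0.71 (interval 0.58 to 0.85). ADAM10, the sheddase of BTC and EGF, was the lowest, with 3981 and 5860 counts and a log2FC of -0.57 (interval -0.63 to -0.51). ADAM17, the main sheddase of AREG, EREG, HBEGF and TGFA, had 1557 and 1460 counts and a log2FC of 0.084 with an interval that included 0.

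Of 9 receptor adaptors, 0 were past 1 or -1, against 5.48% and 5.07% of all genes tested, and the median was -0.12. PLCG1, a phospholipase recruited by active EGFR, was the highest at 0.31, with 1131 and 904 counts. GRB7, an adaptor gene close to ERBB2 on chromosome 17, was the lowest at -0.85, with 123 and 221 counts. Of 10 receptor inhibitors and degradation genes, 9 had at least 10 counts, 0 were past 1 or -1 and the median was -0.046. SH3KBP1, a CBL partner in receptor endocytosis, was the highest at 0.45, with 1551 and 1131 counts. LRIG3, of the LRIG family of receptor regulators, was the lowest at -0.83, with 127 and 224 counts.

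Of 10 genes of the RAS-ERK core, 0 were past 1 or -1, against 5.48% and 5.07% of all genes tested, and the median was 0.043. MAP2K2 (MEK2), a kinase that activates ERK, was the highest, with 1426 counts in shMBD2 and 725 in shNC and a log2FC of 0.97 (interval 0.84 to 1.10). Of 11 genes of the PI3K-AKT core, 0 were past 1 or -1, the median was -0.025, and they ranged from -0.47 for PIK3CA to 0.28 for PIK3R2. Outside MAP2K2, the core of the pathway lay within 0.5 of 0 on the log2 scale.

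The 18 genes known as ERK output or feedback all had at least 10 counts, with 14 above and 4 below 0 and a median of 0.29. In this list 3 of 18 genes were above 1, against 5.48% of all genes tested, and 0 were below -1, against 5.07%. DUSP6, a phosphatase that inactivates ERK, had 219 counts in shMBD2 and 85 in shNC, a log2FC of 1.35 (interval 0.99 to 1.74). FOSL1, a subunit of AP-1, had 354 and 144 counts, a log2FC of 1.29 (interval 1.01 to 1.58). EGR1, an immediate early factor, had 46 and 21 counts, a log2FC of 1.10 (interval 0.35 to 1.94). Whole intervals above 0 were found for 10 of the 18, against 19.7% of all genes tested and 30.4% of those with 1000 or more counts. Whole intervals below 0 were found for 0, against 18.4% and 26.8%. ERRFI1, a feedback gene of EGFR signaling, is counted with the members and not in this list. It went the other way, with an interval from -0.34 to -0.19. The intervals of DUSP4, DUSP5, ETV4, ETV5, SPRY2, SPRED1, SPRED2 and EPHA4 included 0. Their log2FC ran from -0.16 for SPRED1 to 0.32 for SPRY2, so the list did not move as a whole. It was written with earlier results of these data known. Several of the 18 genes also respond to other signals, and the level of ERK activity was not measured.

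**Figure D5:**
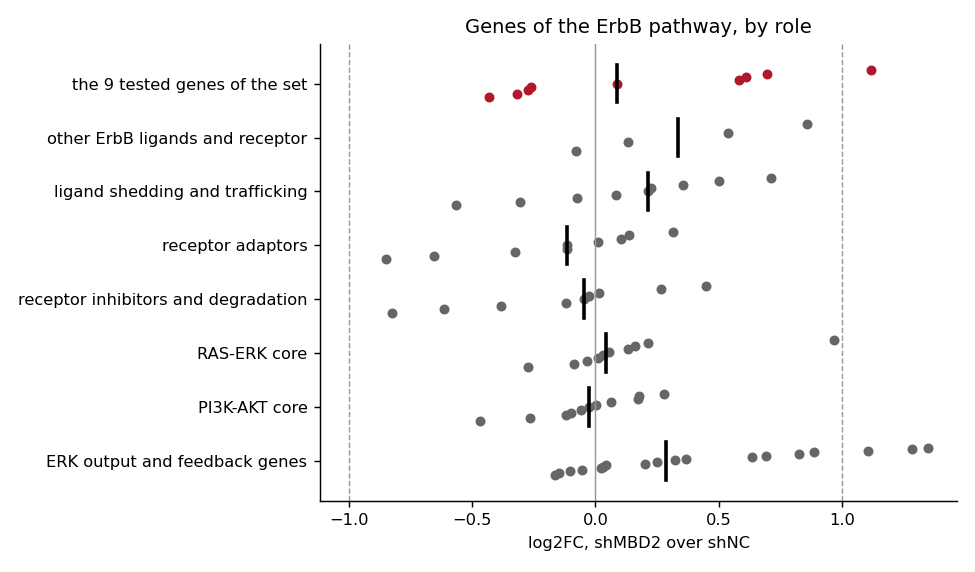
Log2FC (shMBD2 over shNC) of the tested genes of the set and of 7 lists of ErbB pathway genes, with 1 point per gene, a black bar at the median of each list and dashed lines at -1 and 1. Points past 1 are EREG in the set and DUSP6, FOSL1 and EGR1 among the ERK output and feedback genes, and no point lies below -1.

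Genes that overlap members on the other strand were counted as a check, and their part in the member values was not tested. EGFR-AS1 had 3 counts in shMBD2 and 6 in shNC. PGAP3 had 179 and 172 counts and MIEN1 had 263 and 259, and both overlap ERBB2. In the deposited positions EREG, AREG, HBEGF, BTC, EPGN and ERRFI1 overlap no other gene. The strand setting of the counting is not given in the sources used here.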

How the data were processed

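RNA from TFK1 cells was sequenced, with 1 library for shMBD2 and 1 for shNC. The authors deposited raw read counts and TPM, each in its own table of genes by library. The submitters' processing notes name fastp, HISAT2 2.1.0, featureCounts and GRCh38.p13, whereas of 51060 gene identifiers shared with GENCODE 29 (GRCh38) only 0.642% have the same start in the tables. Positions given as GRCh38 are therefore those of GENCODE 29, joined by identifier, and distances between genes on chromosome 4 use the deposited positions. Rows that repeated both a symbol and its values were collapsed, which left 56638 genes from 63677 rows and a TPM sum of 1000000 per library.

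Effective library sizes came from TMM in edgeR 4.0.16 (R 4.3.3). Log2FC was taken after adding 0.5 counts, adjusted to each library's size, and was limited to genes reaching 10 counts over both libraries, and intervals were computed with scipy 1.17.1. The steps were tested on simulated data. A fold against 0 counts used a floor of 3 counts, and no fold is given where both libraries are at or under it. The members and lists were chosen with earlier results of these data known. Named genes are the members, MBD2, the other ErbB ligands and receptor, list genes past 1 or -1 with at least 30 counts in the higher library or otherwise the highest and lowest of a list, chromosome 4 neighbors past 1 or -1 and the 2 nearest that are not, and the 5 genes nearest to AREG in log2FC, which are left out because the AREG interval is wide. ADAM17, the genes of the other receptor and growth factor lists, single markers and overlapping genes were named after their values were seen. An item that the naming rule covers is not reported here. Alternatives were DESeq2 1.42.0 size factors, total counts, upper-quartile factors, log2 of TPM plus 0.1 or 1, prior counts of 2 and 0.1, and filters of at least 1 or 100 counts.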

Additional observations from a re-analysis of the deposited data

How the results depend on the processing

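EREG had a log2FC above 1 under all 9 alternatives, from 1.06 with log2 of TPM plus 1 to 1.13, and no other member passed 1 or -1 under any of them. The count filters leave the value of each gene unchanged by construction, and the other library scalings shift all genes nearly alike. The prior counts matter little for a gene with 1541 and 705 counts. Most alternatives thus could hardly move EREG, whose counting interval reached 0.99. The tested members and MBD2 kept their sign under each alternative that gave a value, with TGFA from 0.61 to 0.71, AREG from -0.34 to -0.31, EGFR from 0.058 to 0.095, ERBB2 from -0.30 to -0.27, ERBB3 from -0.45 to -0.41 and ERRFI1 from -0.29 to -0.25. HBEGF and BTC had no value with at least 100 counts. With that filter the member median went from 0.087 to -0.26, since these ligands were left out. Over all genes, 961 were above 1 and 890 below -1, against 374 and 340 with log2 of TPM plus 1, 4523 and 4303 with at least 1 count, and 213 and 127 with at least 100 counts, which follows from the pseudocount and from how many genes are counted. The log2 ratio of the summed ligands was 0.78 in TPM and 0.96 as CPM, which is not per length. Summing AREG with AREGB, an alternative chosen after seeing the data, left AREG below 0. No paired analysis was possible because there is only 1 library of either kind. Depth limits HBEGF, BTC, AREG and EPGN, and variation between cultures was not measured.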

Other observations

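Other growth factor receptors of these cells were compared as a background for the ErbB family, in 2 lists written after the data had been seen. Of 16 other receptor tyrosine kinases, 15 had at least 10 counts, and the median log2FC was -0.28. Of the 15, 0 were above 1 and 1 was below -1, against 5.48% and 5.07% of all genes tested. Whole intervals lay below 0 for 8 of the 15 and above 0 for 3, against 18.4% and 19.7% of all genes tested. MET, the receptor of HGF, was the most abundant of them per length, with 187 TPM in shMBD2 and 158 TPM in shNC, above EGFR, and its log2FC was 0.27 (interval 0.22 to 0.32). AXL had 1699 counts in shMBD2 and 2252 in shNC, a log2FC of -0.42 (interval -0.51 to -0.32), and IGF1R had 4960 and 5993, a log2FC of -0.28 (interval -0.34 to -0.23). FGFR2, a receptor of fibroblast growth factors, had 167 and 268 counts, a log2FC of -0.69 (interval -0.98 to -0.41). KIT, the gene below -1, had 6 and 18 counts and an interval from -3.22 to -0.20.

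The second list holds 16 other growth factors, of which 13 reached 10 counts. The log2FC of 1 gene lay above 1 and that of 1 gene below -1, against 5.48% and 5.07% of all genes tested. Whole intervals lay above 0 for 5 of the 13 and below 0 for 3, against 19.7% and 18.4% of all genes tested. The middle value of the 13 was 0.0021. VEGFC, a lymphatic growth factor, was the gene above 1, with 333 counts in shMBD2 and 140 in shNC, a log2FC of 1.24 (interval 0.95 to 1.54). PDGFA had 609 and 380 counts, a log2FC of 0.67 (interval 0.48 to 0.86), and TGFB2 had 1586 and 2024, a log2FC of -0.36 (interval -0.46 to -0.27). HGF, the gene below -1, had 2 and 9 counts, and its interval included 0.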
